A study of Mus musculus with 4 samples.

Results

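Many small nucleolar RNAs (snoRNAs) are cut out of the introns of other genes, and the 10 gene models described here are protein-coding genes, none of them for a ribosomal protein, known to carry snoRNAs in this way: Eif4a1, Eif4a2, Ncl, Hspa8, Nop56, Nop58, Dkc1, Eef1b2, Tpt1 and Taf1d. They were taken by symbol from the 50600 gene models of each library, and each symbol matched 1 model. The RNA came from testes of 8-week-old C57BL/6 mice, a laboratory mouse strain, with no other genotype or treatment given in the labels. RNA immunoprecipitation (RIP) recovers the RNAs bound to a protein by capturing that protein with a bead-bound antibody. There were 2 libraries made with an antibody to LARP7 and 2 made with IgG, which measures the RNA that sticks to beads without a specific antibody. Libraries were built with a small RNA kit from RNAs of 15 to 300 nt, so reads of a messenger RNA model come from fragments or short parts of it. Nothing in the labels tells if the replicates are different animals. The p-values therefore reflect library-to-library spread, which may be technical.

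As background, box C/D snoRNAs guide methylation and box H/ACA snoRNAs guide pseudouridylation of other RNAs, mostly ribosomal RNA. A host gene thus yields a spliced messenger RNA and, from its introns, one or more guide RNAs. Many hosts encode proteins of ribosome synthesis or translation. LARP7 is a La-related protein known for binding 7SK RNA and the spliceosomal U6 RNA, where it works with box C/D snoRNAs that guide U6 methylation.

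The 4 libraries held 4411271 to 6994514 counts. Protein-coding genes took 17.7% ± 3.84 of them in the LARP7 RIP and 40.3% ± 2.86 in the IgG RIP (SD, n = 2 each). Testis markers were present in all libraries: the summed level of 5 elongating spermatid markers was 389 and 250 CPM in the LARP7 libraries and 957 and 1082 CPM in the IgG libraries, with 3 of the 5 called lower by edgeR and 5 by DESeq2 and by library totals. By edgeR 2 of 4 round spermatid and 1 of 2 Sertoli markers tested were called lower and 0 of 5 spermatocyte, 0 of 5 Leydig and 0 of 2 peritubular, vascular and blood markers were called. Of 3 spermatogonia markers tested 1 was called higher, and the 4 listed had a summed level of 12.2 and 15.1 CPM in the LARP7 libraries and 7.499 and 5.70 CPM in the IgG libraries. Over the 7 marker lists of germ and somatic cells no listed gene was at 0 in all libraries. The part of cell type markers in the results below was not tested. Both groups are immunoprecipitates from testis, so a marker difference between them is one of recovered RNA. It does not measure the number of cells of a type or the RNA per cell. CPM here is a count scaled by library size and by TMM, a factor that sets the bulk of genes equal between libraries.

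Helicase and polymerase I hosts were higher with the LARP7 antibody, and the chaperone, nucleolin and elongation factor hosts were not called. Of the 10 hosts, 9 had enough counts to test, and 3 of these rose with the LARP7 antibody: Eif4a2, Taf1d and Eif4a1, by 10.2-fold, 6.18-fold and 5.85-fold (edgeR quasi-likelihood test, Benjamini-Hochberg adjusted p under 0.05). No host fell with this scaling at an adjusted p under 0.05, and none did at an unadjusted p under 0.05. At the unadjusted threshold 2563 of all 12234 gene models were higher and 2224 lower. DESeq2 called the same number of hosts in each direction as edgeR. With library totals alone 1 host was called higher and 2 lower. The count of hosts called higher was 1 without LARP7 replicate 1, 2 without LARP7 replicate 2, 1 without IgG replicate 1 and 4 without IgG replicate 2. Among all 12234 gene models tested, 14.5% were called higher and 9.69% lower, and with library totals 3.95% and 47.1%. Among the 3654 other protein-coding genes with mean counts between those of the lowest and the highest host tested, 16.6% were called higher and 20.2% lower, and with library totals 3.12% and 66.1%. The median log2 fold change of the 9 hosts was 0.92, beside -0.05 for all genes tested and -0.48 for those 3654 genes. Together the 10 hosts took 0.938% ± 0.0301 of protein-coding counts in the LARP7 RIP (SD, n = 2). In the IgG RIP they took 0.323% ± 0.157 (SD, n = 2). This share depends on its denominator, since protein-coding genes took 17.7% of all counts in the LARP7 RIP and 40.3% in the IgG RIP. The hosts summed to 9915 and 12142 of 6918040 and 6502682 counts in the LARP7 libraries. In the IgG libraries they summed to 6267 and 7312 of 6994514 and 4411271 counts. As parts of all counts the groups overlapped.

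**Figure D1:**
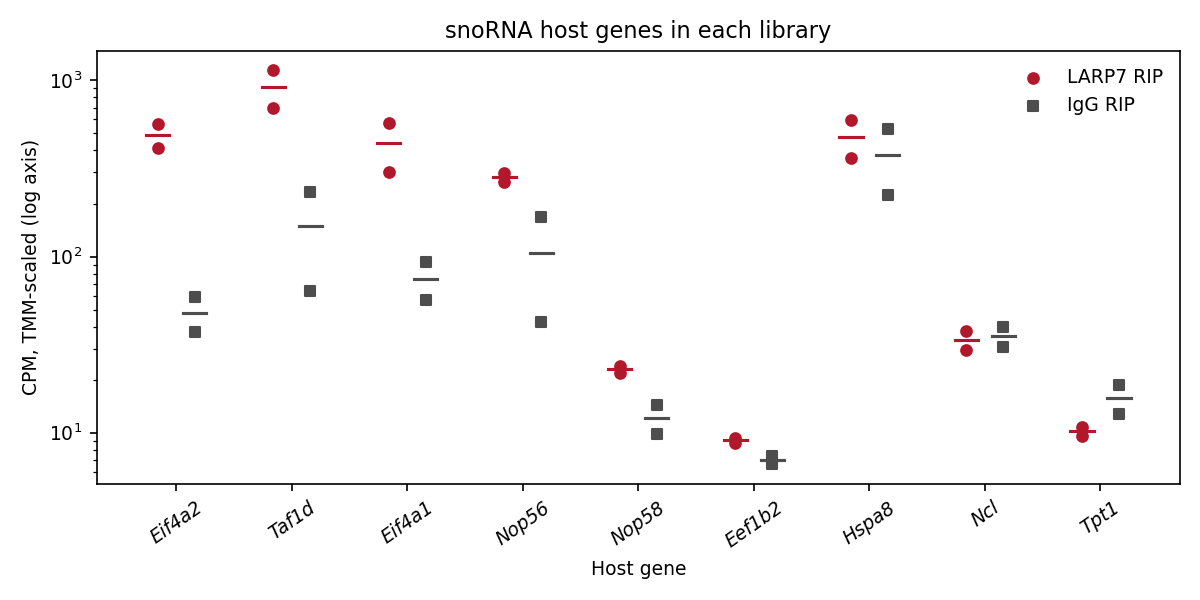
Level in CPM (TMM-scaled, log axis) of the 9 host genes tested in each library; points are libraries, short lines are means of 2 libraries, LARP7 RIP left of IgG RIP. The LARP7 libraries of Eif4a2, Taf1d and Eif4a1 lie well above the IgG libraries, while those of Hspa8 and Ncl overlap with them.

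Eif4a1 and Eif4a2 encode paralogous RNA helicases of the cap-binding complex that starts translation. Eif4a2 (ENSMUSG00000022884.14, chromosome 16, 23107468 to 23114132, GRCm38.p6) had 2170 and 1792 expected counts in the LARP7 libraries, against 475 and 372 in the IgG libraries. In CPM these were 564 and 411 with the LARP7 antibody and 37.1 and 58.9 with IgG, so the groups lay far apart. Its log2 fold change was 3.35 (SE 0.64, edgeR adjusted p = 0.00891), and the adjusted p lay between 0.00204 and 0.0163 when any 1 library was left out. Eif4a2 was also called with library totals alone (1.95, edgeR adjusted p = 0.00427).

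Eif4a1 (ENSMUSG00000059796.16, chromosome 11, 69666936 to 69672423) had 2205 and 1323 expected counts with the LARP7 antibody and 721 and 591 with IgG. Its levels were 573 and 304 CPM in the LARP7 libraries, against 56.3 and 93.5 CPM in the IgG libraries, and the groups did not overlap. The log2 fold change was 2.55 (SE 0.65, edgeR adjusted p = 0.0211). By edgeR it missed the threshold when LARP7 replicate 1 was left out (2.003, adjusted p = 0.0710), when IgG replicate 1 was left out (2.24, adjusted p = 0.0519), and with library totals (1.13, adjusted p = 0.0982). The ratio of Eif4a1 to Eif4a2 counts within a library, which needs no scaling, was 1.02 and 0.738 with the LARP7 antibody and 1.52 and 1.59 with IgG. Eif4a1 thus had the smaller rise of the pair in these libraries; the exact permutation p for this ratio was 0.333, the smallest that 2 libraries against 2 can give.

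Taf1d (ENSMUSG00000031939.16, chromosome 9, 15305953 to 15316997) encodes a subunit of SL1, the factor that places RNA polymerase I on ribosomal RNA genes. It had the most counts of all hosts in both LARP7 libraries, 2688 and 4964, against 815 and 1479 in the IgG libraries. That was 698 and 1139 CPM with the LARP7 antibody and 63.7 and 234 CPM with IgG, without overlap but with a wide spread within each group. The log2 fold change was 2.63 (SE 0.77, edgeR adjusted p = 0.0334). The edgeR call did not hold when LARP7 replicate 1 (2.92, adjusted p = 0.0666), LARP7 replicate 2 (2.23, adjusted p = 0.160) or IgG replicate 1 (1.97, adjusted p = 0.0815) was left out, nor with library totals (1.35, adjusted p = 0.0611). Without IgG replicate 2 it was larger (3.90). Against Hspa8 in the same library, Taf1d counts were 1.93 and 1.91 times as many with the LARP7 antibody and 0.285 and 0.442 times as many with IgG.

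The start regions of the 3 hosts that rose are shown because they are the hosts called higher. Across libraries they did not share an order, since LARP7 replicate 1 had the more Eif4a1 and Eif4a2 and LARP7 replicate 2 the more Taf1d. Each is the stretch of 120 bases just before the start that the RefSeq promoter table (GRCm38.p6) gives, written 5′ to 3′ on the gene's strand, with the motifs searched in capitals. They lie at chr16:23107348-23107467 on the plus strand for Eif4a2, chr11:69672424-69672543 on the minus strand for Eif4a1 and chr9:15306094-15306213 on the plus strand for Taf1d. The Taf1d window lies within the gene span given above, which begins at 15305953, so it is not upstream of that whole span. It also lies within the span of the overlapping gene 4931406C07Rik, which ends at 15306448.
Eif4a2: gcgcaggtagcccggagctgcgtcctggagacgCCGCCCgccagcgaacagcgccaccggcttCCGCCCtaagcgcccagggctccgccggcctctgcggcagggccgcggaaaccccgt
Eif4a1: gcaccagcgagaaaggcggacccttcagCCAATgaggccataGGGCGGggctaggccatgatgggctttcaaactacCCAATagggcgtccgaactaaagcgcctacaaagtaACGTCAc
Taf1d: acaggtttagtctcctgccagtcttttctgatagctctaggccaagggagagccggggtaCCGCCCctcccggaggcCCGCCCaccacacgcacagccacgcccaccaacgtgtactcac

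Over the 250 bases before the start, on both strands, 7 motifs were searched. The GC box GGGCGG was in 7 of the 10 hosts, these 3 among them, and in 32.9% of 27025 promoters. TGACGT, part of the cyclic AMP response element, was in 4 hosts, Eif4a1, Ncl, Nop58 and Tpt1, and in 6.56% of promoters. The box CCAAT was in Eif4a1 and Nop56, and in 34.5% of promoters. The other motifs were TATAAA, in 1 host and 13.0% of promoters, CACGTG, in 1 host and 6.05%, CCGGAAG, in 0 hosts and 7.05%, and TCTCGCG, in 1 host and 2.20%. None overlapped another in the sequences shown, and a match is a description of the letters only.

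Nop56, Nop58 and Dkc1 encode core proteins of the snoRNA particles themselves: NOP56 and NOP58 sit on box C/D snoRNAs, and dyskerin, from Dkc1, is the pseudouridine synthase of box H/ACA particles. Nop56 (ENSMUSG00000027405.16, chromosome 2, 130274367 to 130279313) had 1147 and 1155 expected counts with the LARP7 antibody, against 546 and 1059 with IgG. In CPM it had 298 and 265 in the LARP7 libraries and 42.7 and 168 in the IgG libraries. The IgG libraries differed more from each other than the LARP7 libraries did, and Nop56 was not called (log2 fold change 1.42, SE 0.69, edgeR adjusted p = 0.151). Without IgG replicate 2 it was called (2.78, edgeR adjusted p = 0.0170).

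Nop58 (ENSMUSG00000026020.9, chromosome 1, 59684961 to 59711510) had few counts, 91.5 and 94.9 with the LARP7 antibody and 126 and 91.1 with IgG. Its levels were 23.9 and 21.8 CPM against 9.84 and 14.4 CPM, which did not overlap, but it missed the threshold (log2 fold change 0.92, SE 0.40, edgeR adjusted p = 0.109). Dkc1 (chromosome X, 75095854 to 75109776) had 3.55 and 0 expected counts with the LARP7 antibody and 4.56 and 0 with IgG. It failed the filter on low counts, and no difference was detectable at this depth. Within a library Nop56 had 12.5 and 12.2 times the counts of Nop58 with the LARP7 antibody and 4.33 and 11.6 times with IgG.

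The other 4 hosts encode a nucleolar RNA-binding protein (Ncl, nucleolin), the constitutive Hsp70 chaperone (Hspa8), the nucleotide exchange subunit of elongation factor 1 (Eef1b2) and the translationally controlled tumour protein (Tpt1). Hspa8 (ENSMUSG00000015656.17, chromosome 9, 40801276 to 40805202) had the most counts of all hosts in the IgG libraries, with 1392 and 2598 in the LARP7 libraries against 2854 and 3344 in the IgG libraries. Its levels of 362 and 596 CPM with the LARP7 antibody and 223 and 529 CPM with IgG overlapped (log2 fold change 0.35, SE 0.66, edgeR adjusted p = 0.720). Its sign was not stable, and the value was -0.96 with library totals.

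Ncl (ENSMUSG00000026234.12, chromosome 1, 86344719 to 86359455) had 37.9 and 29.6 CPM with the LARP7 antibody, from 146 and 129 counts, and 30.6 and 40.02 CPM with IgG, from 392 and 253 counts. The groups overlapped, with a log2 fold change of -0.06 (SE 0.42, edgeR adjusted p = 0.924). Eef1b2 (ENSMUSG00000025967.16, chromosome 1, 63176831 to 63180486) had 9.35 and 8.72 CPM against 7.34 and 6.64 CPM, from 35.6 and 37.6 counts against 94.0 and 42.0 (log2 fold change 0.37, SE 0.44, edgeR adjusted p = 0.557). Tpt1 (ENSMUSG00000060126.14, chromosome 14, 75845256 to 75848303) was the host with the lowest fold change. It had 9.61 and 10.8 CPM with the LARP7 antibody, from 36.7 and 47.25 counts, and 18.7 and 12.8 CPM with IgG, from 239 and 80.9 counts (log2 fold change -0.63, SE 0.42, edgeR adjusted p = 0.285). Ncl and Tpt1 were called lower with library totals (-1.47, edgeR adjusted p = 0.0120, and -2.07, edgeR adjusted p = 0.000437), where 47.1% of all gene models were called lower. Of the 9 hosts tested, 6 had LARP7 libraries wholly above the IgG libraries in CPM and 1, Tpt1, wholly below; among all gene models tested these shares were 32.9% and 35.6%, and among the 3654 protein-coding genes of the hosts' count range 30.0% and 50.2%.

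The fold changes of the hosts moved with the scaling by nearly the same amount as those of all genes. With library totals the median of all genes tested was lower than with TMM by a log2 difference of -1.42. Subtracting this median removes a shift common to all genes, so close distances under both scalings were fixed in advance. They do not bear on the calls, which Eif4a1 and Taf1d lost with library totals. Relative to the median of all genes, Eif4a2 lay 3.39 above with TMM and 3.41 above with library totals. Taf1d lay 2.68 and 2.81 above, Eif4a1 2.60 and 2.60, Nop56 1.47 and 1.57 and Nop58 0.97 and 0.99 above. Hspa8 and Eef1b2 lay within 0.51 of the median under both scalings, Ncl lay at -0.01 under both, and Tpt1 at -0.58 and -0.60. Protein-coding counts were a smaller part of all counts in the LARP7 libraries than in the IgG libraries, so shares of them are also scaled. As shares of protein-coding counts, the ratio of the LARP7 mean to the IgG mean was 9.05 for Eif4a2, 5.51 for Taf1d and 5.27 for Eif4a1. It was 2.44 for Nop56 and 1.66 for Nop58. It was 1.12 for Hspa8, 1.11 for Eef1b2, 0.844 for Ncl and 0.552 for Tpt1, which is the same order as with TMM but for Hspa8 and Eef1b2. On the log2(TPM + 1) scale, where counts are divided by length, Eif4a2 lay 1.49 above the median and Taf1d 0.36 above, while Eif4a1 lay at -0.01 from it. This scale understates changes of genes at low TPM, and limma called 0 gene models on it, with 57 higher and 3787 lower at an unadjusted p under 0.05.

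**Figure D2:**
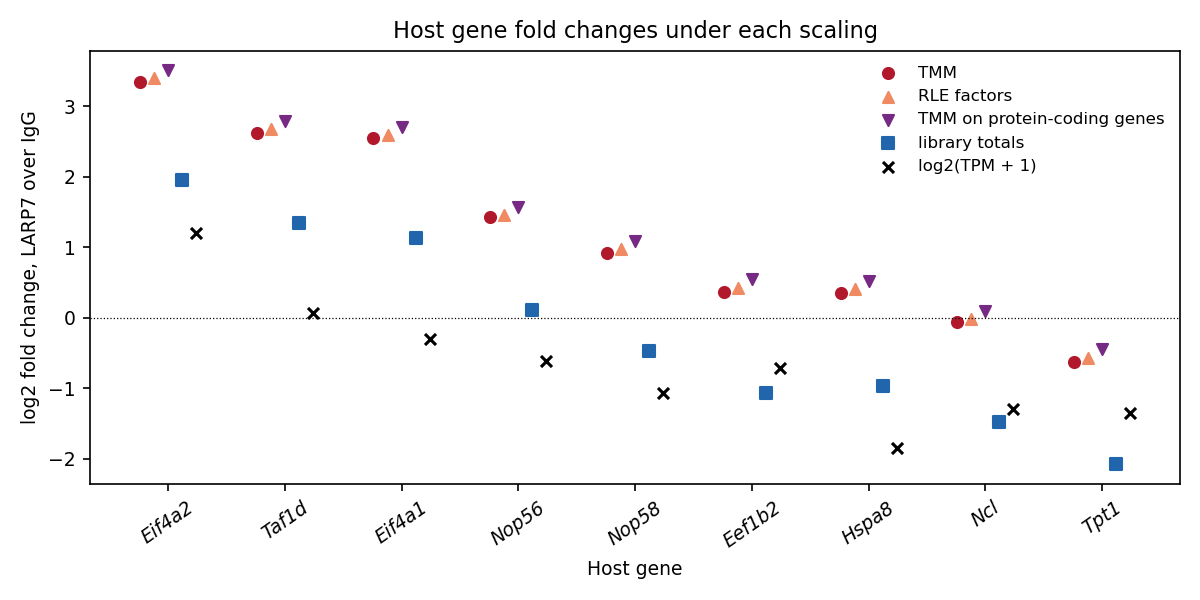
log2 fold change, LARP7 over IgG, of the 9 hosts under TMM, RLE factors (those of DESeq2), TMM computed on protein-coding genes only, library totals, and log2(TPM + 1). Library totals lower every host by about the same amount, and on the TPM scale 2 hosts, Eif4a2 and Taf1d, stay above 0.

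Set beside protein-coding genes of like count, meaning those with a mean count within 1.5-fold of the host's own, the hosts differed in where they stood. Of 43 genes of like count, 1 had a higher log2 fold change than Eif4a2 and 3 a higher one than Eif4a1. The median of these 43 was -0.60 for both hosts, but 32.6% of them were called higher and their 75th percentile was 1.97. A high fold change was thus not rare at this count. For Taf1d, 2 of 22 such genes lay above it, but their median was 1.88 and 40.9% of them were called higher, so a high fold change was common at its count. Hspa8, of nearly the same count, lay below the median of its 21 genes, which was 1.90. Nop56 had 25 of 69 genes above it, with a median of -0.82. Among the hosts of low count, 21.9% of 1793 genes lay above Nop58, 31.9% of 2624 above Eef1b2, 35.7% of 810 above Ncl and 56.5% of 1792 above Tpt1. These positions are descriptions, with no test.

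**Figure D3:**
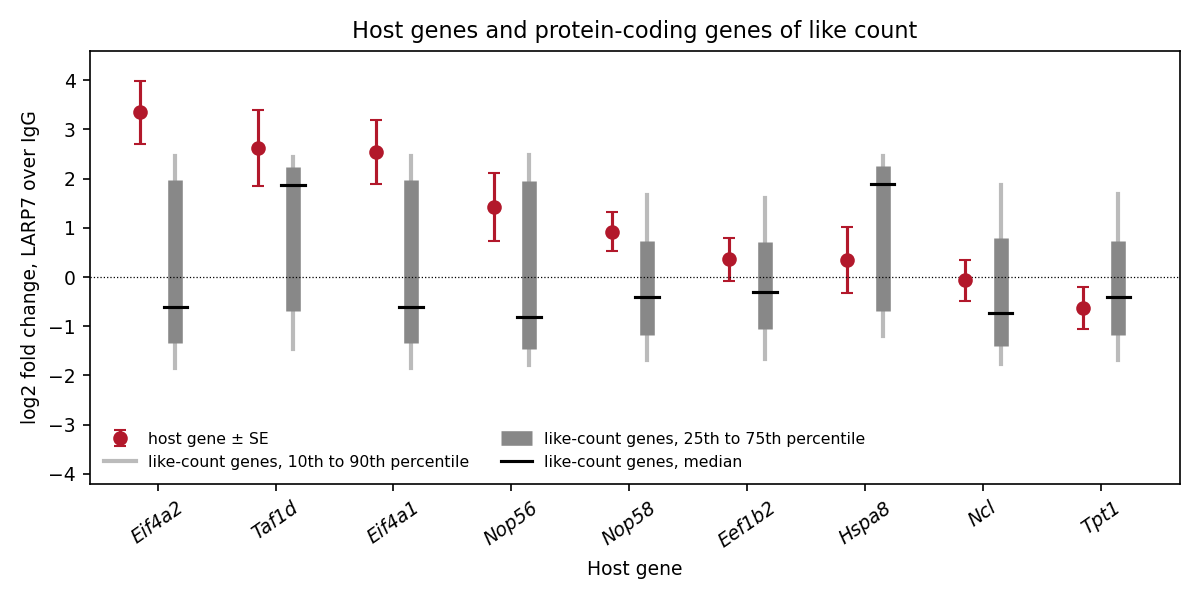
log2 fold change, LARP7 over IgG, of each host (points, ± SE from edgeR) beside all other protein-coding genes tested within 1.5-fold of its mean count (black line: median; thick bar: 25th to 75th percentile; thin bar: 10th to 90th). Eif4a2, Eif4a1 and Taf1d lie above their thin bars, and Hspa8 lies below the median of its genes.

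The next comparison was between the hosts and the snoRNAs inside them, called guests here. RefSeq places 32 snoRNA models within the spans of the 10 hosts. By name, 17 of them matched a gene model of the files; the other 15, including all 6 within Taf1d, have only locus numbers as names and are not analysed here. The RefSeq list gives no strand for them, so a guest is defined by position alone. Of the 17, 15 were tested, and 7 rose with the LARP7 antibody by edgeR and 0 fell. None was lower at an unadjusted p under 0.05, where 2224 of all 12234 gene models were. DESeq2 called 9 guests higher and 0 lower, beside 1707 higher and 729 lower of all 12234 gene models. Library totals gave 3 guests higher and 2 lower, beside 3.95% and 47.1% of all gene models. The number of guests higher also changed with the library left out, as did the number of all gene models called. Among the 136 other snoRNA models tested, 37.5% were called higher and 2.21% lower by edgeR with TMM. The median log2 fold change of the 15 guests was 1.89, beside 1.54 for the other snoRNAs, and 14 of the 15 lay above 0.

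The 2 hosts with the largest rises among those with counted guests each had a fold change close to that of a counted guest. RefSeq snoRNA models without a match, 3 of 5 within Eif4a2 and 2 of 3 within Eif4a1, could not be compared. Snord2, a box C/D snoRNA within Eif4a2 (chromosome 16, 23108953 to 23109020), had 870102 and 260263 expected counts in the LARP7 libraries, against 184516 and 97898.5 in the IgG libraries. Its log2 fold change was 3.26 (SE 0.98, edgeR adjusted p = 0.0362), beside 3.35 for Eif4a2. RSEM shares reads among gene models, and whether the host counts hold reads of the guests was not tested. Host and guest values may therefore not be separate readouts. Snord2 was not called without LARP7 replicate 1 (1.98, edgeR adjusted p = 0.406) or LARP7 replicate 2 (3.92, edgeR adjusted p = 0.225). Snora81, a box H/ACA guest of the same gene, had 3.64 and 5.74 CPM with the LARP7 antibody and 5.23 and 9.02 CPM with IgG (log2 ratio -0.58, edgeR adjusted p = 0.435). Gm25835, a 144 nt snoRNA model within Eif4a1 (chromosome 11, 69668852 to 69668995), had 927 and 2304 CPM with the LARP7 antibody and 164 and 384 CPM with IgG. Its log2 fold change was 2.56 (SE 0.78, edgeR adjusted p = 0.0363), beside 2.55 for Eif4a1. The call needed 3 of the 4 libraries: the value was 3.06 when LARP7 replicate 1 was dropped, 1.76 when LARP7 replicate 2 was dropped and 2.06 when IgG replicate 1 was dropped, with edgeR adjusted p of 0.0639, 0.270 and 0.0674. The libraries did not follow each other, however: LARP7 replicate 1 had the more Eif4a1 counts and LARP7 replicate 2 the more Gm25835 counts.

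The other hosts with counted guests had lower fold changes than most of their guests, though the differences were not tested. The same order held between the classes as a whole, with medians of 1.54 for other snoRNAs and -0.25 for other protein-coding genes. Within Nop56, Snord110 (chromosome 2, 130275515 to 130275573) had 14019 and 9541 CPM with the LARP7 antibody, against 739 and 2319 CPM with IgG (log2 ratio 2.95, SE 0.86, edgeR adjusted p = 0.0323). Snord57 (chromosome 2, 130278026 to 130278088) had 19859 and 10595 CPM against 2043 and 2426 CPM (log2 fold change 2.77, SE 0.80, edgeR adjusted p = 0.0311). Both values exceed the 1.42 of Nop56 itself. Neither was called by edgeR without LARP7 replicate 1 (2.62, adjusted p = 0.183, and 2.23, adjusted p = 0.242) or LARP7 replicate 2 (3.19, adjusted p = 0.172, and 3.15, adjusted p = 0.183). Within Nop58, Snord11 had 191 and 329 CPM with the LARP7 antibody and 30.5 and 49.8 CPM with IgG (log2 ratio 2.70, SE 0.60, edgeR adjusted p = 0.0141), a call that held when any 1 library was left out. Gm26287 in the same gene had 8.31 and 15.8 CPM with the LARP7 antibody and 1.25 and 3.01 CPM with IgG. Its log2 ratio of 2.56 was called (edgeR adjusted p = 0.0156), but not without LARP7 replicate 2 (2.01, edgeR adjusted p = 0.139). Snord70, the third counted guest of Nop58, had 0.68 (edgeR adjusted p = 0.348), close to the 0.92 of its host.

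Ncl lay below both of its counted guests. Its guest Snord82 (chromosome 1, 86356260 to 86356327) had 12752 and 10104 CPM in the LARP7 libraries, against 1780 and 4960 CPM in the IgG libraries (log2 fold change 1.76, SE 0.81, edgeR adjusted p = 0.130). It was called by DESeq2 (1.80, adjusted p = 0.0121) and without IgG replicate 2 (2.74, edgeR adjusted p = 0.0220). Snora75, an H/ACA guest of low count, had 2.22 (edgeR adjusted p = 0.0568), and 2.34 when IgG replicate 2 was left out (edgeR adjusted p = 0.0396). The guests of Ncl summed to 337 and 341 counts per host count with the LARP7 antibody and to 58.1 and 124 with IgG, a ratio within libraries that needs no scaling. The like ratio was 54.4 and 49.8 against 19.2 and 32.2 for Eef1b2, whose counted guest Gm26457 stood at 1.40 on the log2 scale (edgeR adjusted p = 0.111). Gm26457 was called by DESeq2 (1.45, adjusted p = 0.0129) and with the replicate block (1.42, edgeR adjusted p = 0.0417). For Nop56 the ratio was 114 and 76.0 against 65.2 and 28.3, and it was 13.7 and 22.0 against 9.59 and 10.6 for Nop58, and 0.599 and 0.762 against 0.347 and 0.284 for Tpt1. These ratios are descriptions, with no share over other pairs beside them. For Eif4a2 (401 and 145 against 389 and 263), Eif4a1 (1.62 and 7.59 against 2.91 and 4.10) and Hspa8 (0.964 and 0.419 against 1.32 and 0.298) the groups overlapped.

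Hspa8 carries 3 copies of U14, a box C/D snoRNA needed for processing of ribosomal RNA. Snord14c and Snord14d had log2 fold changes of 0.49 and 0.09 (edgeR adjusted p = 0.520 and 0.921), near the 0.35 of the host. Snord14e, the third copy (chromosome 9, 40804748 to 40804838), had 33.0 and 47.3 CPM with the LARP7 antibody and 10.6 and 11.1 CPM with IgG, and rose (log2 fold change 1.89, SE 0.40, edgeR adjusted p = 0.0119). Without IgG replicate 1 it missed the threshold (1.85, edgeR adjusted p = 0.0536). It had the fewest counts of the 3. RSEM's posterior SD was at most 0.0261 of the count for any of the copies. Snora31, within Tpt1, was not called (log2 fold change 0.45, edgeR adjusted p = 0.543). Snora41 within Eef1b2 had 0 counts in the LARP7 libraries and 6 and 0 in the IgG libraries, and Gm25520 within Dkc1 had 0 in all libraries.

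**Figure D4:**
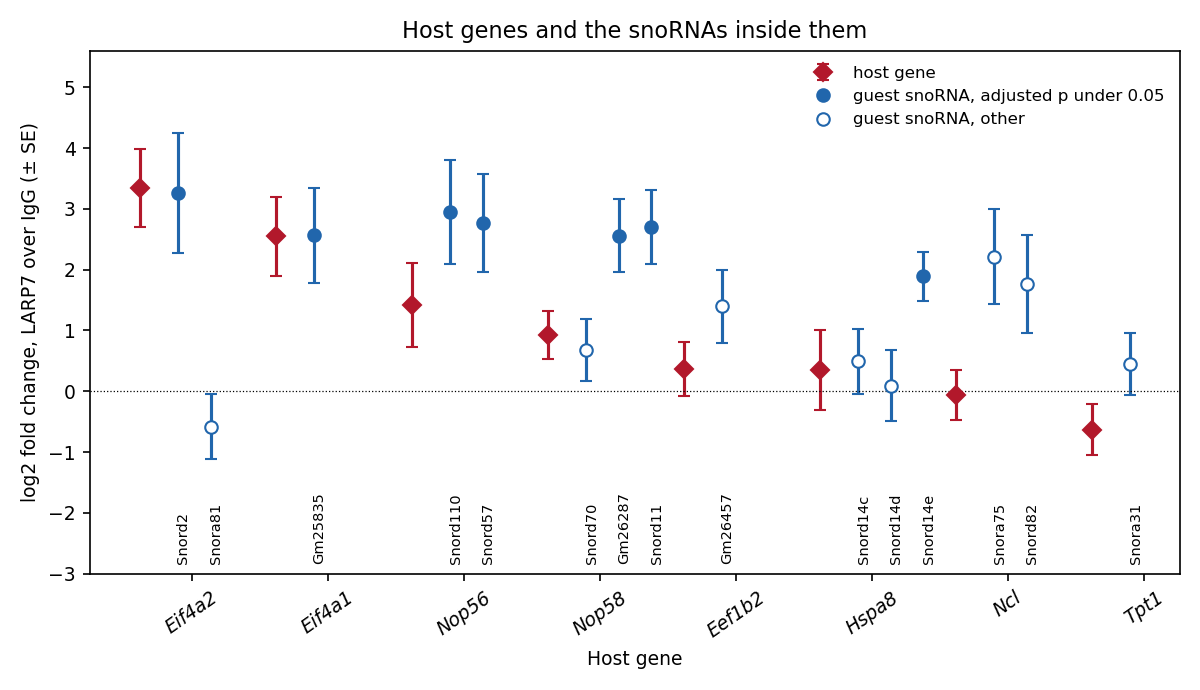
log2 fold change, LARP7 over IgG (± SE from edgeR), of each host gene (red diamonds) and of the 15 guest snoRNAs tested (blue circles, filled where the adjusted p is under 0.05). Host and guest values are alike for Eif4a2 with Snord2 and Eif4a1 with Gm25835, while the guests of Nop56 and Ncl lie above their hosts.

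A further small RNA lies within Ncl, and its sequence is shown because it is annotated as a microRNA and yet holds the letters of snoRNA boxes. The RefSeq table holds Gm24148 as a microRNA (chr1:86351981-86352127, minus strand, GRCm38.p6, 147 nt), whereas the deposited model of that name is 80 nt long. The hairpin and its mature form are written 5′ to 3′ with capitals for AUGAUGA, a form of the box C of box C/D snoRNAs, and for the last CUGA, the letters of their box D.
Gm24148 hairpin: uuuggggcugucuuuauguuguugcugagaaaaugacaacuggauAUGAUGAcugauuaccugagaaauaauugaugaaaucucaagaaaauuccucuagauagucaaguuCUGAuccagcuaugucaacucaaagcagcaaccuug
mmu-miR-3535: uggauAUGAUGAcugauuaccugaga

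AUGAUGA is in 7 of the 1005 hairpins of the table (0.697%), searched on the RNA strand only. The Gm24148 model had 3047 and 815 CPM in the LARP7 libraries and 1103 and 1420 CPM in the IgG libraries. These overlapped, and the log2 fold change was 0.61 (SE 0.77, edgeR adjusted p = 0.577), below those of Snord82 and Snora75 in the same gene.

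RSEM gives each gene a length averaged over its transcripts, weighted by their estimated abundance, so a change in it means that other transcripts of the gene received the reads. The hosts have 6 to 24 transcripts each in the files. Eif4a2, with 24, had a weighted length of 553 and 557 nt with the LARP7 antibody and 989 and 647 nt with IgG. Eif4a1 went the other way, with 3135 and 3026 nt against 2711 and 2438 nt. Taf1d had 3476 and 3117 nt with the LARP7 antibody and 2812 and 3029 nt with IgG, and Nop58 2246 and 4346 nt against 1011 and 1224 nt. Eef1b2 (679 and 656 nt against 846 and 835 nt) and Tpt1 (764 and 702 nt against 881 and 907 nt) were shorter with the LARP7 antibody. Nop56 differed by 11.0 nt between group means, and the libraries of Hspa8 and Ncl overlapped.

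The groups did not overlap in weighted length for 7 of the 9 hosts tested, 3 longer (Eif4a1, Taf1d and Nop58) and 4 shorter with the LARP7 antibody. Among 3113 protein-coding genes of the hosts' count range with several transcripts, 23.2% were longer and 18.5% shorter without overlap. Each such host had an exact two-sided permutation p of 0.333, the smallest that 2 libraries against 2 allow. Whether transcripts that keep a guest's intron took part in these shifts was not tested.

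**Figure D5:**
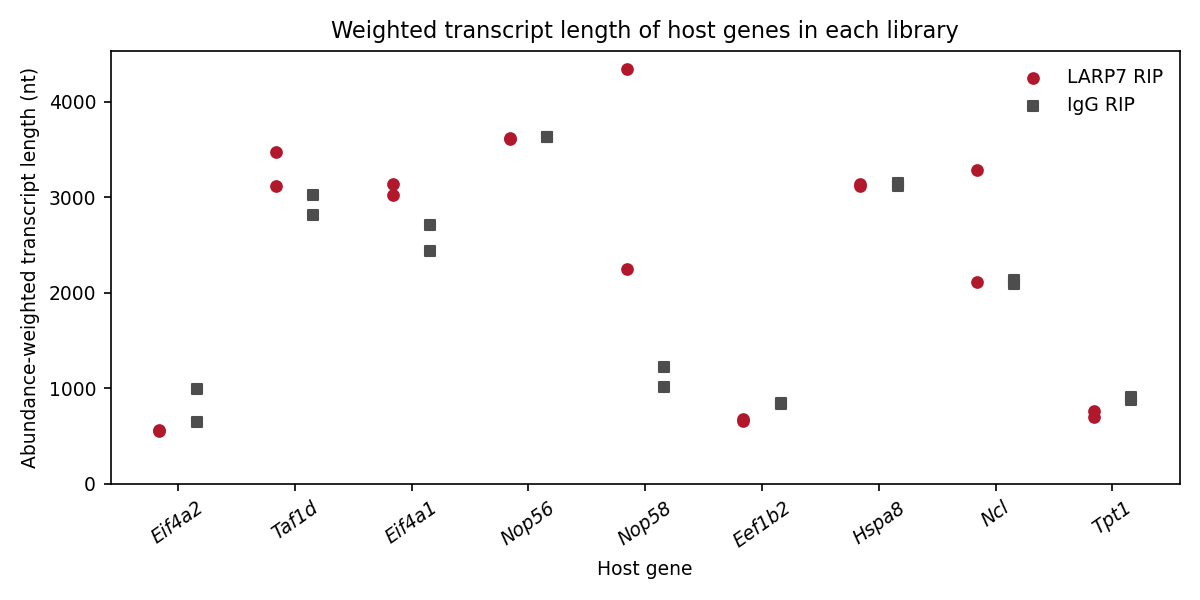
Abundance-weighted transcript length (nt) of the 9 hosts in each library, LARP7 RIP left of IgG RIP. Eif4a2, Eef1b2 and Tpt1 are shorter with the LARP7 antibody, while Eif4a1, Taf1d and Nop58 are longer.

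Levels per length can be ordered between hosts by TPM. In the LARP7 libraries Eif4a2 was highest, with 15.4 and 23.3 TPM, followed by Taf1d (2.74 and 10.45 TPM) and Hspa8 (1.58 and 5.42 TPM), which overlapped with each other and with Eif4a1 (2.49 and 2.87 TPM). In the IgG libraries Hspa8 was highest, with 12.35 and 14.9 TPM, above Eif4a2 (6.79 and 8.73 TPM), which overlapped with Taf1d (3.92 and 6.85 TPM). The hosts not named here lay at or under 2.09 TPM in the LARP7 libraries, where Nop56 was highest and overlapped with Hspa8. Eif4a1 and those hosts lay at or under 4.08 TPM in the IgG libraries.

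Genes that work with the hosts were counted from 4 lists, to be read beside the 14.5% higher and 9.69% lower of all gene models by edgeR. At an unadjusted p under 0.05 edgeR had 2563 of all 12234 gene models higher and 2224 lower. DESeq2 called 1707 of them higher and 729 lower, and library totals called 3.95% higher and 47.1% lower. Of 14 snoRNA particle proteins and assembly factors tested, 1 rose and 2 fell by edgeR, with a median log2 fold change of -0.18, while DESeq2 called 1 higher and 0 lower and library totals 0 higher and 8 lower. Znhit3, a box C/D assembly factor, rose (1.92, edgeR adjusted p = 0.0233), though not without LARP7 replicate 2 (1.36) or IgG replicate 2 (1.67). Ruvbl2, an ATPase of the same assembly, and Npm1, nucleophosmin, fell (-1.38 and -1.33, edgeR adjusted p = 0.0410 and 0.0352). Neither kept its call when any 1 library was left out, with edgeR adjusted p from 0.0530 to 0.210 over both genes, nor with TMM over protein-coding genes (adjusted p = 0.0678 and 0.0567).

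Of 15 other initiation and elongation factors 3 fell and 0 rose, with a median of -1.10. DESeq2 gave the same counts, library totals gave 0 higher and 13 lower, and at an unadjusted p under 0.05 edgeR had 0 higher and 8 lower. Those that fell were Eef2 (-1.77), which moves the ribosome along, Eef1d (-1.44), a partner of Eef1b2, and Eif5 (-1.40), with edgeR adjusted p of 0.0426, 0.0338 and 0.0379. All 3 missed the threshold without LARP7 replicate 2 (-1.40, -1.20 and -1.25) and without IgG replicate 1 (-1.51, -1.11 and -1.04), and Eef2 and Eif5 also without LARP7 replicate 1 (-2.28 and -1.56). With TMM over protein-coding genes Eef2 and Eif5 were not called (edgeR adjusted p = 0.0653 and 0.0575), nor was Eef2 with RLE factors (edgeR adjusted p = 0.0519). Of 14 Hsp70 family members and partners 1 fell and 0 rose, also by DESeq2, with a median of -0.63. At an unadjusted p under 0.05 edgeR had 0 higher and 5 lower, and library totals called 0 higher and 13 lower. The exchange factor Bag1 fell (-2.31, edgeR adjusted p = 0.00749), and Hsp90aa1, with the most counts of the list, had -0.69 (edgeR adjusted p = 0.462).

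The RNA polymerase I list holds partners of Taf1d. Of 12 tested, 4 rose and 0 fell by edgeR, with a median of 0.75. At an unadjusted p under 0.05 there were 6 higher and 0 lower, beside 2563 higher and 2224 lower of all 12234 gene models. DESeq2 called 3 higher and 0 lower, and library totals 1 higher and 4 lower. Those that rose were Polr1b, a catalytic subunit (3.19, edgeR adjusted p = 0.00923), Taf1c of SL1 (2.64, edgeR adjusted p = 0.0166), Polr1e (1.88, edgeR adjusted p = 0.0471) and the initiation factor Rrn3 (1.23, edgeR adjusted p = 0.0439). Polr1b and Taf1c had few counts: 23.52 and 72.15 for Polr1b with the LARP7 antibody against 14.19 and 9.11 with IgG. Taf1c had 21 and 54 against 23 and 6. None of the 4 was called without LARP7 replicate 2 (2.31, 1.95, 1.18 and 1.12), and Polr1e and Rrn3 also were not without IgG replicate 1 (1.26 and 1.14). Polr1e was also not called with RLE factors or TMM over protein-coding genes (edgeR adjusted p = 0.0552 and 0.0508). Rrn3 missed the threshold without LARP7 replicate 1 (1.31) and IgG replicate 2 (1.37) as well. Tbp, with the most counts of the list, had -0.61 (edgeR adjusted p = 0.340).

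Genes whose spans overlap the hosts' ends gave no call. Rfc4 beside Eif4a2 had a log2 fold change of 0.53, Idh3b beside Nop56 -1.43, and 4931406C07Rik and Cep295 beside Taf1d 0.61 and -0.42, with edgeR adjusted p from 0.0951 to 0.552. Mpp1 beside Dkc1 had too few counts to test.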

How the data were processed

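Small RNA libraries of 2 LARP7 and 2 IgG immunoprecipitates were grouped by the labels. Per the submitters' processing notes, adapters were trimmed with cutadapt, reads aligned with Bowtie2 to mm10 and quantified with RSEM; the sources used here give no versions. The deposited expected counts are the authors' RSEM estimates, which share reads among genes and need not be whole. The deposited TPM values are the authors' RSEM estimates divided by effective length. PCR reads are not independent molecules.

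Expected counts were rounded to whole numbers and tested in edgeR 4.0.16 (R 4.3.3; filterByExpr, TMM, robust quasi-likelihood test, Benjamini-Hochberg adjustment over all 12234 gene models that passed, threshold 0.05). Each SE was derived from the fold change and its F statistic. Totals ran from 4411271 to 6994514 counts, with TMM factors of 0.558 and 0.673 (LARP7) against 1.85 and 1.44 (IgG). Alternatives were other scalings, no filter, DESeq2 1.42.0, limma 3.58.1 on log2(TPM + 1), a replicate block, posterior mean counts and leaving out each library. RefSeq (GRCm38.p6) matched 35715 of the 50600 models by symbol or synonym and gave coordinates, protein-coding status and guests. All hosts and guests were named, and of each list the called genes and the one with the most counts. The hosts and lists were chosen with earlier results of these data known. The testing code was tested on simulated data. There it called 0 of 56 genes with a true 2-fold change, 15 of 44 with 4-fold and 34 of 41 with 8-fold. Few genes were changed there, in both directions and without the shift in scaling seen between the groups, so these rates need not hold here. Changes of the smaller sizes could be missed.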

Additional observations from a re-analysis of the deposited data

How the results depend on the processing

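With library totals in place of TMM, the hosts called were 1 higher and 2 lower, the gene models 483 higher and 5759 lower, and the guests 3 higher and 2 lower. Log2 fold changes then changed sign for Hspa8 (-0.96), Nop58 (-0.47), Eef1b2 (-1.06), Snord14c (-1.001), Snord14d (-1.42), Snord70 (-0.69), Snora31 (-0.99) and Rrn3 (-0.17), as the median of all genes moved by -1.42. With limma on log2(TPM + 1), 0 hosts, 0 guests and 0 gene models were called in either direction, against 57 higher and 3787 lower gene models at an unadjusted p under 0.05. There the sign changed for Eif4a1 (-0.30), Hspa8 (-1.84), Nop56 (-0.61), Nop58 (-1.07), Eef1b2 (-0.71), Gm25835 (-0.0789), Snora75 (-0.30), Snord82 (-0.50), Snord14c (-2.04), Snord14d (-2.39), Snord14e (-0.67), Snord70 (-1.83), Gm26457 (-1.09), Snora31 (-1.66), Znhit3 (-0.23), Polr1e (-0.11) and Rrn3 (-0.22). TMM over protein-coding genes turned Ncl to 0.10. DESeq2 called 1707 gene models higher and 729 lower. Leaving out 1 library gave 1 to 4 hosts higher and 0 lower, 660 to 2138 gene models higher and 197 to 922 lower, and 2 to 9 guests higher and 0 lower. Over those fits Ncl ranged from -0.27 to 0.20, Hspa8 from -0.15 to 1.15 and Snord14d from -0.30 to 0.75. The causes of these differences were not tested.

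The replicate numbers are shared by both groups, but no label says what a number marks. Deviations of LARP7 replicate 1 and IgG replicate 1 from their group means correlated at 0.20 over genes. With 2 libraries per group the other same-numbered pair gives the same value by construction. With the replicate block 3 hosts were higher and 0 lower, and 2088 gene models were higher and 1405 lower, while Gm26457 became called (1.42). Posterior mean counts, an alternative chosen after seeing the data, gave 3 hosts higher. Dkc1, Gm25520 and Snora41 had too few counts to test at this depth.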
